A study of Mus musculus with 6 samples.

Results

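Hypoxia-inducible genes did not move as a block in mouse livers 12 hours after an overdose of acetaminophen (APAP). Adm and Slc2a1 rose 4.31-fold and 2.82-fold over the saline mean, while Pdk1 fell to 20.9% of it. In both APAP libraries Hif1a, Egln3 and Ndrg1 lay above, and Bnip3 and Egln1 below, the whole saline range, but none of these 5 had an adjusted p under 0.05. Vegfa and Ankrd37 overlapped between the groups. The 10 genes were chosen by name, as Hif1a, which encodes the oxygen-regulated subunit of hypoxia-inducible factor 1, and 9 of its classical targets. All 10 were found among the 34745 genes of the expression table, and none of them was lost to the filter on low counts, which left 13734 genes to test.

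Hypoxia-inducible factor 1 is a dimer of an oxygen-sensitive subunit, HIF1A, and a stable partner, ARNT. When oxygen is present, prolyl hydroxylases of the Egln family modify HIF1A, which is then bound by the VHL ubiquitin ligase and degraded, so the factor is controlled mainly through its protein and its mRNA level does not report its activity. When the factor accumulates, it binds a short DNA element with the core ACGTG or GCGTG and raises genes that supply blood and glucose, spare mitochondrial oxygen use and feed back on HIF1A itself. In liver, oxygen falls along the sinusoid from the portal to the central vein, and the hepatocytes around the central vein are those that die after APAP.

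Livers of WT mice, fasted for 12 hours and then injected intraperitoneally with APAP (300 mg/kg, 12 hours) or saline, were profiled by bulk RNA-Seq. The Methods describe C57BL/6J males 8 to 10 weeks old. The samples comprise 3 livers per group, and 5 libraries were analysed here, APAP replicates 1 and 3 and 3 libraries named WT1, WT2 and WT3. The WT libraries were taken for the saline group since the name ApAp marks the remaining columns, and all fold changes depend on this. The second APAP replicate has no count column in the expression table and was not analysed here. No label says whether the libraries of a group came from separate mice, so p-values measure the spread between these libraries. Levels are given in CPM, read counts scaled to a common library size with the TMM factors of edgeR, and counts per library totalled between 13378445 and 15976339. A floor of 3 counts corresponded to between 0.176 and 0.269 CPM and covers counting error only.

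Several features of the libraries moved with the groups. Mitochondrial genes took 10.3% and 10.4% of counts with APAP and between 11.5% and 16.4% with saline, and TMM factors were 1.27 and 1.09 against 0.783 to 0.98. Xist measured 0.764 and 1.73 CPM after APAP against 289.6, 914 and 882 CPM after saline, and the Y-linked Ddx3y was at 79.0 and 61.7 CPM with APAP and had no more than 1 count per saline library, which for the saline libraries goes against the males of the Methods. Sex as shown by these genes and treatment cannot be told apart. All 7 hepatocyte markers had counts (1 fell at an adjusted p under 0.05), and their summed level was 73221 and 114359 CPM with APAP and between 118853 and 164211 CPM with saline. Alb made up most of this sum, at 51540 and 89800 CPM against 95100 to 129100 CPM. Of these 7 markers, 5 lay below all saline libraries (20.1% of all tested genes) and 1, Fgb, above them (24.0%). Fgb was at 10380 and 7867 CPM with APAP against 4614 to 6593 CPM with saline. The summed level of 8 centrilobular hepatocyte markers, of which 7 fell, was 969.6 and 1858 CPM with APAP and between 7459 and 11981 CPM with saline, and that of 7 periportal markers, of which 3 fell, was 5209 and 5514 CPM against 11584 to 11992 CPM. The 8 neutrophil markers, of which 7 were tested and 6 rose, summed to 116.5 and 75.5 CPM with APAP and to between 4.57 and 8.35 CPM with saline, where Ly6g had 0 counts in all 3 libraries. The 5 cholangiocyte markers, of which 2 rose (Spp1 and Sox9), summed to 347 and 355 CPM against 47.1 to 51.95 CPM. Most of this sum was Spp1, at 276 and 313 CPM against 37.7 to 42.65 CPM. All 5 lay above the saline range in both APAP libraries, but in APAP replicate 3 the margin was narrow for 2 of them. Krt19 was at 23.6 and 2.72 CPM against 1.255 to 2.539 CPM, and Epcam at 8.23 and 2.41 CPM against 1.46 to 2.34 CPM. The 5 monocyte markers, of which 3 rose, summed to 48.2 and 51.55 CPM against 10.1 to 11.8 CPM. Summed levels of the 7 sinusoidal endothelial markers (115.5 and 188.8 CPM against 131.6 to 241.8 CPM) overlapped between the groups, as did those of Kupffer cell, stellate cell and erythroid markers, and lymphocyte markers summed to 3.35 and 3.03 CPM against 3.67 to 5.56 CPM. The part of these differences in the results below was not tested, and in bulk tissue fewer cells of a type and less RNA per cell cannot be told apart.

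To see whether the hypoxia-inducible genes differed between APAP and saline livers, they were read from a fit across all tested genes. At an adjusted p under 0.05 in the edgeR quasi-likelihood test, 2 of the 10 genes rose (Adm and Slc2a1), where 3.70% of all tested genes did, and 1 fell (Pdk1), where 3.53% did. At the study's thresholds, a fold change of at least 1.5 with an unadjusted P under 0.05, 4 were higher (Adm, Slc2a1, Ndrg1 and Egln3) against a background of 12.3%, and 2 were lower (Pdk1 and Bnip3) against 11.2%. Both APAP libraries lay above all saline libraries for 5 genes (24.0% of all tested genes) and below them for 3 (20.1%). The median log2 fold change of the 10 genes was 0.48, against 0.03 over all tested genes. Leaving out APAP replicate 1, saline WT1 or saline WT2 reduced the 3 genes to 1 in each fit, and leaving out APAP replicate 3 reduced them to 2.

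**Figure D1:**
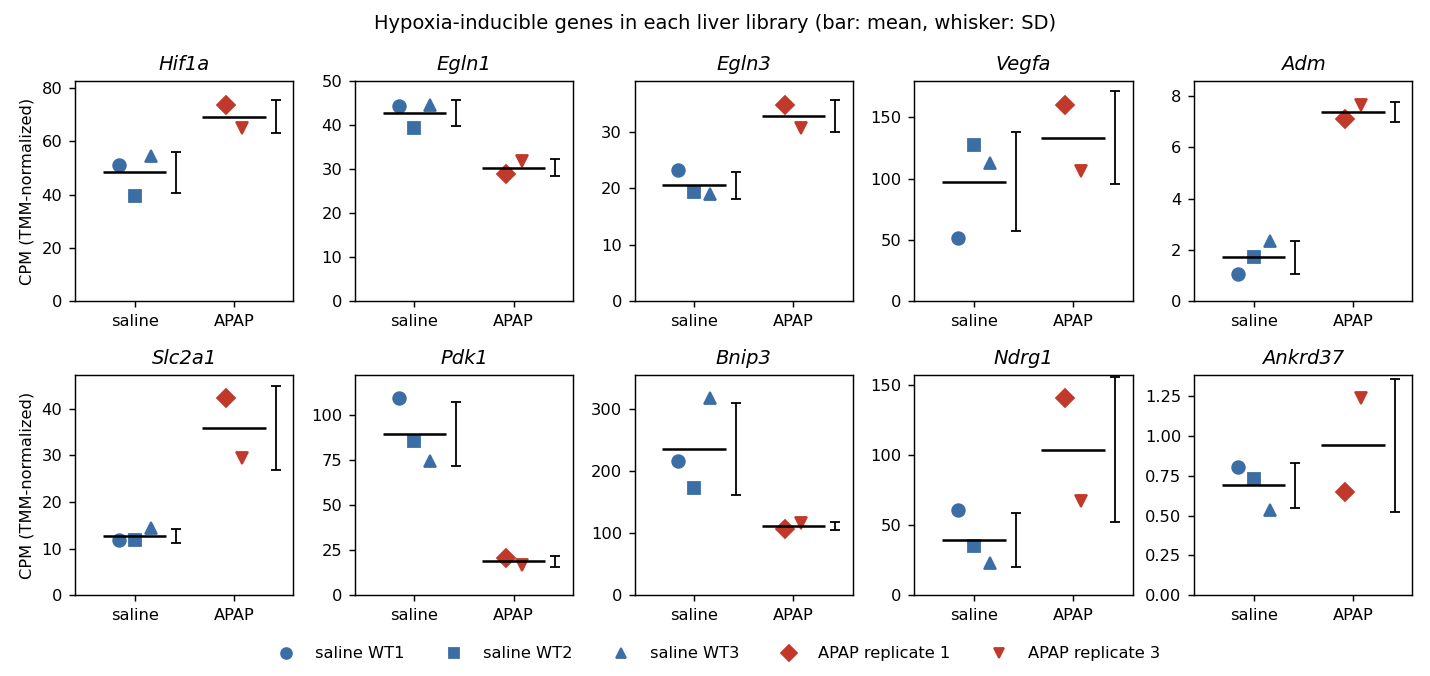
Level of each of the 10 genes in every library, in TMM-normalized CPM on axes that start at 0, for 3 saline libraries (blue) and 2 APAP libraries (red), with the group mean as a bar and the SD as a whisker. Adm and Slc2a1 lie clearly higher and Pdk1 clearly lower with APAP, while Vegfa and Ankrd37 overlap.

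The proximal promoters of the genes that rose or fell are shown because hypoxia-inducible factor 1 acts through a short element that can be looked for in their letters. RefSeq windows from 250 bases before to 50 bases after the transcription start (GRCm38.p6, 300 bases) were found for 9 of the 10 genes, the exception being Ndrg1. The letters ACGTG and GCGTG were searched on both strands, so that CACGT and CACGC in the printed strand are the same elements on the other strand. Capitals mark these matches, and each line runs 5′ to 3′ along the gene.
Adm (rose, chr7:110627407-110627706, plus strand): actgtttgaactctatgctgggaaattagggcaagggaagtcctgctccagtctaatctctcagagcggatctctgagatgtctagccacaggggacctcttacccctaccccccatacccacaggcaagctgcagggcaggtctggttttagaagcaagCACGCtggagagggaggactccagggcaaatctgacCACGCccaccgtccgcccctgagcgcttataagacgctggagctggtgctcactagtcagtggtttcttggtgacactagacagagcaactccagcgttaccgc
Slc2a1 (rose, chr4:119108495-119108794, plus strand): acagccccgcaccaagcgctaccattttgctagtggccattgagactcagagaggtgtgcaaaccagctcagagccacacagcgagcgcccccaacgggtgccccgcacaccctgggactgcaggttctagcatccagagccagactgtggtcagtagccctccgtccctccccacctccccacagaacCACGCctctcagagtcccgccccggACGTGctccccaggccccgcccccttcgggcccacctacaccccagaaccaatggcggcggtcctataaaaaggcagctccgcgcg
Pdk1 (fell, chr2:71872974-71873273, plus strand): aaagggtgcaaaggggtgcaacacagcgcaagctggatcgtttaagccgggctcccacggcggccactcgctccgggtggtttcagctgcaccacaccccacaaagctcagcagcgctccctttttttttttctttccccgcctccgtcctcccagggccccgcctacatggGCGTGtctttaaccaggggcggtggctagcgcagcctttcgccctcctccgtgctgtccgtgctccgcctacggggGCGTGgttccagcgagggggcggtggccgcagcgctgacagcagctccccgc
Each of the 3 windows holds 2 matches. In Adm both are CACGC, beginning 90 and 54 bases before the start. In Slc2a1 they are CACGC at 61 and ACGTG at 36 bases before the start, and in Pdk1 both are GCGTG, at 78 and 2 bases before it. Adm and Slc2a1, which rose, and Pdk1, which fell, thus held the same number of matches in these windows, and a further Pdk1 window at another start (chr2:71874654-71874953) held none. All 9 genes had at least 1 match in 1 or more windows (9 of their 11 windows), from 1 in Egln3 to 5 in Bnip3. For Vegfa the window at the start of the gene (chr17:46032328-46032627) held none. Its 2 matches lay in a window at another start inside the gene (chr17:46025114-46025413). Of all 32851 mouse windows, 43.8% held one of the cores, 19.6% holding ACGTG and 32.4% holding GCGTG. The palindrome CACGTG, which counts as 2 overlapping matches and is also the E-box of other factors, was present in Hif1a and Bnip3 and in 7.15% of all windows. A match is a description of the letters, and no binding was measured.

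Among the secreted factors, Adm encodes adrenomedullin, a peptide that dilates blood vessels and keeps endothelial barriers tight. Adm (ENSMUSG00000030790, chromosome 7 of GRCm38, 110627661 to 110629820) had 121 and 124 counts in APAP replicates 1 and 3 and 12, 26 and 35 counts in saline WT1, WT2 and WT3. These correspond to 7.11 and 7.67 CPM against 1.08, 1.73 and 2.34 CPM, so that the lowest APAP library was 3.04-fold above the highest saline library. The mean was 7.39 ± 0.393 CPM (SD, n = 2) with APAP and 1.71 ± 0.632 CPM (SD, n = 3) with saline. The log2 fold change of Adm was 2.09 (standard error, SE, 0.39, adjusted p = 0.0292 by the quasi-likelihood test of edgeR, Benjamini-Hochberg adjusted), higher than that of 96.9% of the tested genes. It stayed between 1.87 and 2.46 under 13 alternatives, but the adjusted p was above 0.05 without APAP replicate 1 (0.132), APAP replicate 3 (0.11), saline WT1 (0.0537) or saline WT2 (0.117).

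Vegfa, the main growth factor of endothelial cells and the best known target of the pathway, showed no such separation. Vegfa (ENSMUSG00000023951, chromosome 17, 46016993 to 46032377) measured 160 and 106 CPM after APAP against 51.99, 128 and 113 CPM after saline. Saline WT1 was the low library, and APAP replicate 3 lay below the other two saline libraries. The log2 fold change was 0.45 (SE 0.403, 95% interval −0.51 to 1.41, adjusted p = 0.54 from the same test). Without saline WT1 it was 0.16 and without APAP replicate 1 it was 0.13. A difference in Vegfa was not detectable with these libraries.

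Among the genes of glucose and pyruvate use, Slc2a1 and Pdk1 moved in opposite directions. Slc2a1 encodes the glucose transporter GLUT1, which most cells use for basal uptake and which hepatocytes carry at low levels beside GLUT2. Slc2a1 (ENSMUSG00000028645, chromosome 4, 119108711 to 119137983) measured 42.2 and 29.6 CPM after APAP (719 and 478 counts) against 11.9, 11.8 and 14.5 CPM after saline (133, 178 and 217 counts). The saline libraries were tight, and the lower APAP library was 2.04-fold above the highest of them. The means were 35.9 ± 8.98 CPM (SD, n = 2) and 12.75 ± 1.52 CPM (SD, n = 3), and the fitted log2 difference was 1.49 (SE 0.23, adjusted p = 0.0174 by edgeR). The value ranged from 1.21 to 1.902 under the alternatives, and the adjusted p was above 0.05 without APAP replicate 1 (0.116), saline WT1 (0.0503) or saline WT2 (0.0905). Slc2a2, which encodes GLUT2, measured 156 and 239 CPM after APAP against 182, 172 and 158 CPM after saline. Counts per kb of Slc2a1 relative to Slc2a2 were 0.444 and 0.203 with APAP and 0.107, 0.113 and 0.1504 with saline.

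Pdk1 encodes a kinase that phosphorylates the pyruvate dehydrogenase complex and thereby holds back the oxidation of pyruvate in mitochondria. Pdk1 (ENSMUSG00000006494, chromosome 2, 71873224 to 71903858) measured 20.7 and 16.7 CPM after APAP (353 and 270 counts) against 109, 85.5 and 74.5 CPM after saline (1220, 1287 and 1115 counts). The higher APAP library held 27.8% of the lowest saline library, with no overlap. The means of 18.7 ± 2.87 CPM (SD, n = 2) and 89.8 ± 17.8 CPM (SD, n = 3) gave a log2 fold change of −2.26 (SE 0.26, adjusted p = 0.00666 by edgeR), lower than that of 98.03% of the tested genes. Pdk1 was the only one of the 10 genes with an adjusted p under 0.05 in all 13 alternatives, where its log2 fold change lay between −2.42 and −1.84 and the largest adjusted p was 0.0479.

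The fall was shared by another kinase of the family. Pdk2 measured 32.02 and 30.97 CPM after APAP against 93.1, 82.97 and 61.3 CPM after saline (log2 fold change −1.33, SE 0.25, adjusted p = 0.0282 by edgeR), and Dlat, the acetyltransferase core of the pyruvate dehydrogenase complex, was at 29.4 and 23.9 CPM against 55.3, 51.1 and 47.7 CPM (−0.95, SE 0.21, adjusted p = 0.0418). Leaving out any 1 of the 5 libraries ended the call of Dlat, and leaving out any but saline WT3 ended that of Pdk2. With scaling to library size only, the adjusted p was 0.06 for Pdk2 (log2 fold change −0.92) and 0.183 for Dlat (−0.54), and with upper-quartile factors it was 0.0508 for Dlat. Pdk4, the kinase that fasting and fatty acids raise, spread widely within both groups, with 68.9 and 127 CPM after APAP against 38.4, 24.98 and 199.6 CPM after saline (log2 fold change 0.16, SE 0.84). Of the 8 genes of the pyruvate dehydrogenase complex and its kinases and phosphatases, 2 fell at an adjusted p under 0.05 (3.53% of all tested genes) and 4 were lower and none higher at the study's thresholds (11.2% and 12.3%). In this group 5 genes lay below all saline libraries (20.1% of all tested genes) and 2 above them, near the background of 24.0%. The median log2 fold change was −0.64. Relative to Pdk2, Pdk1 counts per kb were 0.263 and 0.219 with APAP and 0.477, 0.419 and 0.494 with saline.

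The factor and its oxygen sensors did not pass the test. Hif1a (ENSMUSG00000021109, chromosome 12, 73901375 to 73947530) measured 73.7 and 64.8 CPM after APAP against 51.1, 39.7 and 54.3 CPM after saline. Both APAP libraries were above all saline libraries by a narrow margin, with the lower of them 1.19-fold above the highest saline library. Its log2 fold change of 0.52 (SE 0.22, 95% interval 0.0034 to 1.035) had an adjusted p of 0.199 by edgeR, which was not under 0.05 in any of 13 alternatives. Egln3, an Egln enzyme that is itself a target and so forms a feedback loop, measured 34.8 and 30.7 CPM after APAP against 23.2, 19.3 and 18.97 CPM after saline. Egln3 (ENSMUSG00000035105, chromosome 12, 54178981 to 54203860) had a log2 fold change of 0.68 (SE 0.2003, adjusted p = 0.0925), which passed the threshold with scaling to library size only (adjusted p = 0.033). Egln1, the enzyme that sets HIF1A levels in most tissues, lay on the other side. Egln1 (ENSMUSG00000031987, chromosome 8, 124908596 to 124949254) measured 28.97 and 31.8 CPM after APAP against 44.5, 39.4 and 44.7 CPM after saline, with a log2 fold change of −0.4964 (SE 0.19, adjusted p = 0.167) that was −0.103 with scaling to library size only. The ratio of the 2 mRNAs does not depend on the scaling of libraries, but its size depends on the exon lengths used. Counts per kb of Egln3 relative to Egln1 were 1.62 and 1.31 with APAP and 0.705, 0.6625 and 0.573 with saline. With these lengths, Egln3 mRNA was the more abundant of the pair in both APAP libraries and the less abundant in all 3 saline libraries. The lengths are those of GENCODE M21, where the span of Egln1 differs from the deposited one, so this order within a library is uncertain. Protein was not measured.

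The remaining genes act in mitochondria, cytosol and nucleus. Bnip3, a protein of the outer mitochondrial membrane that promotes mitophagy, had the highest level of the 10 genes per kb of exon. Bnip3 (ENSMUSG00000078566, chromosome 7, 138890836 to 138909519) measured 106 and 116 CPM after APAP against 217, 172 and 317 CPM after saline, and the higher APAP library held 67.4% of the lowest saline library. The log2 fold change was −1.08 (SE 0.31, adjusted p = 0.0879 by edgeR), and in the likelihood ratio test, the exact test and DESeq2 the adjusted p was under 0.05, the smallest being 0.00698. Transcripts of 6 other genes, whose names are absent from the deposited counts, hold 62.45% of the 50-base stretches of the Bnip3 transcript, so the count of Bnip3 is uncertain. Its relative Bnip3l measured 69.7 and 64.5 CPM after APAP against 75.6, 64.1 and 80.4 CPM after saline, with no separation.

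Ndrg1, a cytosolic protein induced by hypoxia and by differentiation, had the widest spread within a group among the genes higher with APAP. Ndrg1 (ENSMUSG00000005125, chromosome 15, 66929321 to 66969640) measured 141 and 67.4 CPM after APAP against 60.8, 35.5 and 22.9 CPM after saline. APAP replicate 1 was 2.09-fold above replicate 3, which lay only 1.11-fold above the highest saline library. The log2 fold change was 1.39 (SE 0.46, adjusted p = 0.122 by edgeR) and was 0.77 without APAP replicate 1. In the likelihood ratio test, the exact test, DESeq2 and with scaling to library size only its adjusted p was under 0.05, the smallest being 0.0437. The related Ndrg2 moved the other way, from 1755, 1290 and 1112 CPM with saline to 360.0 and 395.6 CPM with APAP (log2 fold change −1.88, SE 0.32, adjusted p = 0.0221), a call that was lost without APAP replicate 1, APAP replicate 3 or saline WT2. Relatives, receptors and related ligands of the other genes gave 17 tested genes (kinases of the Pdk family are counted with pyruvate dehydrogenase). Of these, 1 fell at an adjusted p under 0.05, namely Ndrg2, and 0 rose. Among all tested genes 3.53% fell and 3.70% rose, so that this count was near the background.

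Ankrd37, a small ankyrin repeat protein, was close to the limit of detection. Ankrd37 (ENSMUSG00000050914, chromosome 8, 45996902 to 45999867) had 11 and 20 counts with APAP and 9, 11 and 8 counts with saline, or 0.646 and 1.24 CPM against 0.807, 0.731 and 0.534 CPM. The groups overlapped, and the log2 fold change of 0.45 (SE 0.603, 95% interval −0.98 to 1.88) turned to −0.099 without APAP replicate 3. On the opposite strand, exons of Lrp2bp cover 22.7% of the exon bases of Ankrd37. Lrp2bp had 2 and 2 counts with APAP and 31, 22 and 36 with saline, and Ufsp2, which covers 3.7%, had 473 and 609 against 446, 540 and 586. The strand setting of the counting is not given in the sources used here, so reads of these genes may have been counted for either. Genes of the table that are annotated over the span of Hif1a, Adm, Ndrg1 or Slc2a1 had at most 2 counts in any library.

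**Figure D2:**
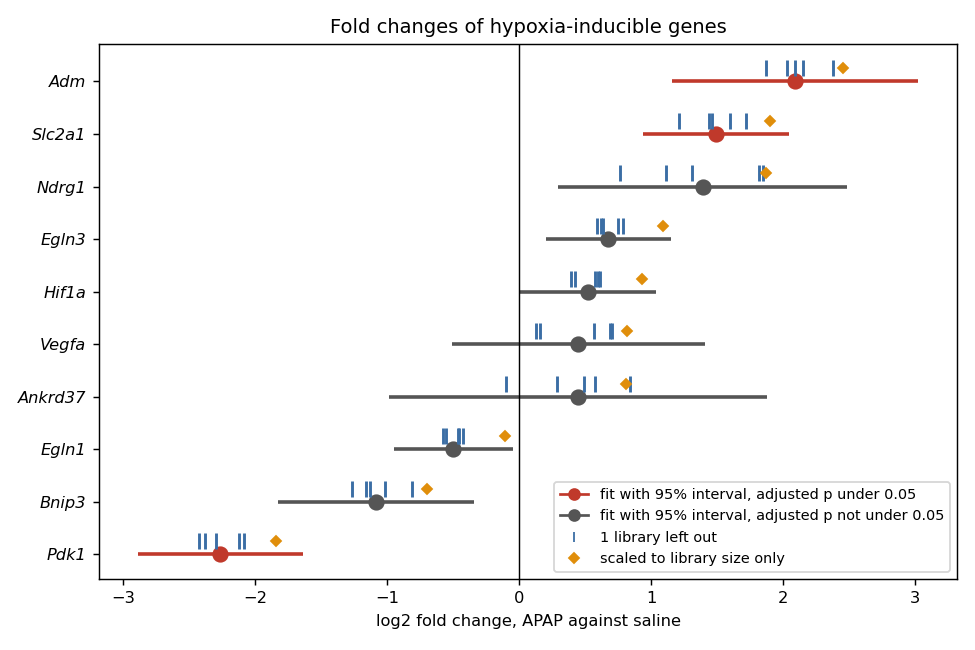
Fitted log2 fold change of each gene, APAP against saline, with its 95% interval (red where the adjusted p is under 0.05), the 5 values with 1 library left out (blue ticks) and the value with scaling to library size only (orange). Pdk1 lies below 0 and Adm and Slc2a1 above it in all of these fits, and the tick of Ankrd37 at −0.099 crosses 0.

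Compared per kb of exon, the order of the 10 genes changed between the groups. In saline livers Bnip3 was the highest at 104 ± 32.8 CPM per kb (SD, n = 3), followed by Vegfa at 22.8 ± 9.38, Egln1 at 11.9 ± 0.833, Pdk1 at 11.5 ± 2.29, Hif1a at 8.201 ± 1.31, Egln3 at 7.703 ± 0.884, Ndrg1 at 6.02 ± 2.92, Slc2a1 at 3.64 ± 0.432, Adm at 1.06 ± 0.39 and Ankrd37 at 0.449 ± 0.0913. Neighbours whose saline libraries overlapped were Vegfa and Egln1 (through WT1, the low Vegfa library), Egln1 and Pdk1, Hif1a and Egln3, Egln3 and Ndrg1, and Ndrg1 and Slc2a1. With APAP, Bnip3 and Vegfa were still the highest at 49.1 ± 2.98 and 31.1 ± 8.896 CPM per kb (SD, n = 2), while Pdk1 went from rank 4 to rank 9 at 2.41 ± 0.368, Egln1 from rank 3 to rank 7 at 8.45 ± 0.552, and Ndrg1 from rank 7 to rank 3 at 15.8 ± 7.86. From Ndrg1 through Egln3, Hif1a and Slc2a1 to Egln1, each overlapped with its neighbour in the APAP libraries. Ankrd37 was the lowest in both groups.

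**Figure D3:**
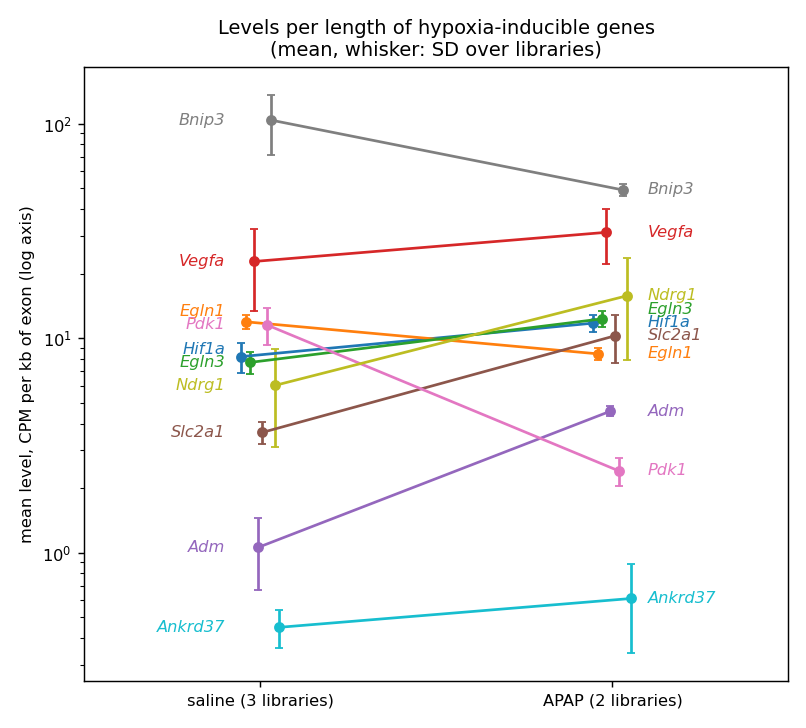
Mean level of each gene in saline and APAP libraries in CPM per kb of exon, on a log axis, with the SD as a whisker. The line of Pdk1 falls across those of Hif1a, Egln3, Ndrg1, Slc2a1 and Adm, and Bnip3 and Vegfa stay the highest in both groups.

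The rest of the machinery that acts on HIF1A showed no change that passed the test. Of 16 genes (the partners, the VHL ligase, the coactivators and the hydroxylases other than Egln1 and Egln3, which are among the 10), 14 were tested. In the edgeR quasi-likelihood test 0 of them had an adjusted p under 0.05 and 0 an unadjusted p under 0.05. Of all 13734 tested genes 993 and 3413 did, so that 0 adjusted calls among 14 genes was near the background. The likelihood ratio test, the exact test and DESeq2 gave 0 genes with an adjusted p under 0.05 either. Epas1, the related HIF-2α subunit, measured 209 and 282 CPM after APAP against 167, 169 and 235 CPM after saline. Hif3a, an inhibitory relative, was at 1.23 and 0.804 CPM against 0.179, 0.93 and 1.07 CPM. Arnt, the stable partner, was at 19.8 and 20.3 CPM against 20.9, 26.5 and 34.2 CPM, below all saline libraries but with a log2 fold change of −0.44 (SE 0.25). Vhl, at 15.3 and 13.85 CPM against 15.6, 13.5 and 17.7 CPM, and Hif1an, the asparaginyl hydroxylase that blocks coactivator binding, at 30.1 and 39.9 CPM against 34.3, 33.2 and 38.55 CPM, overlapped between the groups. Egln2, the third Egln enzyme, was at 49.1 and 60.2 CPM against 68.5, 64.7 and 78.2 CPM. Counts per kb of Hif1a relative to Epas1 were 0.334 and 0.218 with APAP and 0.291, 0.222 and 0.219 with saline, without separation.

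Other hypoxia-inducible genes that passed the test lay in both directions. Of 47 tested genes among 54 in the table, 5 rose and 3 fell at an adjusted p under 0.05, where 3.70% and 3.53% of all tested genes did. At the study's thresholds 11 were higher and 5 lower, against 12.3% and 11.2% of all tested genes, so that the number of lower genes was near the background. The median log2 fold change was 0.25. The 8 genes were reduced to 3 without saline WT1 or saline WT2, to 4 without APAP replicate 1 and to 5 without APAP replicate 3. Angpt2, an angiopoietin that loosens vessels, measured 13.7 and 18.0 CPM after APAP against 0.717, 0.199 and 0.468 CPM after saline (log2 fold change 5.12, SE 0.47, adjusted p = 0.00367 by edgeR), and Anxa2, a membrane-binding annexin, was at 90.7 and 72.1 CPM against 9.77, 9.101 and 7.15 CPM (3.23, SE 0.23, adjusted p = 0.00182). Both genes kept an adjusted p under 0.05 in every alternative in which they were tested. Hmox1, the stress-inducible heme oxygenase that is also a target of NRF2, was at 89.9 and 122 CPM against 28.1, 16.1 and 41.4 CPM (1.89, SE 0.38, adjusted p = 0.0358), a call that, of the 5 fits without 1 library, held without saline WT3 and was lost in the other 4.

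Lower with APAP were Nt5e, the ecto-5′-nucleotidase that makes adenosine, at 12.4 and 3.58 CPM against 48.8, 47.96 and 43.2 CPM (log2 fold change −2.54, SE 0.5007, adjusted p = 0.0335 by edgeR), Zfp395, a zinc finger protein, at 22.4 and 16.7 CPM against 45.4, 48.6 and 35.2 CPM (−1.14, adjusted p = 0.0424), and Mxi1, an antagonist of MYC, at 16.4 and 19.4 CPM against 42.3, 32.7 and 36.9 CPM (−1.06, adjusted p = 0.0372). Leaving out APAP replicate 1 moved the log2 fold change of Nt5e to −3.69, leaving out APAP replicate 3 moved it to −1.92, and its call was lost without saline WT1 or WT2. The call of Zfp395 was lost in all fits without 1 library but the one without saline WT3, and with upper-quartile factors, and that of Mxi1 in all 5. With scaling to library size only, none of the 3 had an adjusted p under 0.05. Car9, a carbonic anhydrase and a classical marker of hypoxia that was chosen after its values were seen, had 90 counts in APAP replicate 1, 5 in APAP replicate 3 and 2, 2 and 0 in the saline libraries, and did not pass the filter on low counts.

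Glycolytic enzymes, which hypoxia-inducible factor 1 raises in many cell types, had a median log2 fold change of −0.01. In edgeR's quasi-likelihood test 0 of 19 tested genes had an adjusted p under 0.05 and 6 an unadjusted p under 0.05 (4 higher and 2 lower), where 3413 of the 13734 tested genes had one, while the likelihood ratio test, the exact test and DESeq2 called 5, 5 and 6. Ldha, the lactate dehydrogenase subunit, measured 1268 and 1644 CPM after APAP against 785, 540 and 749 CPM after saline (log2 fold change 1.07, SE 0.296, adjusted p = 0.0784 by edgeR). Pgk1, a glycolytic kinase and a standard target, was at 303 and 261 CPM against 333, 250 and 244 CPM (0.03, SE 0.25).

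**Figure D4:**
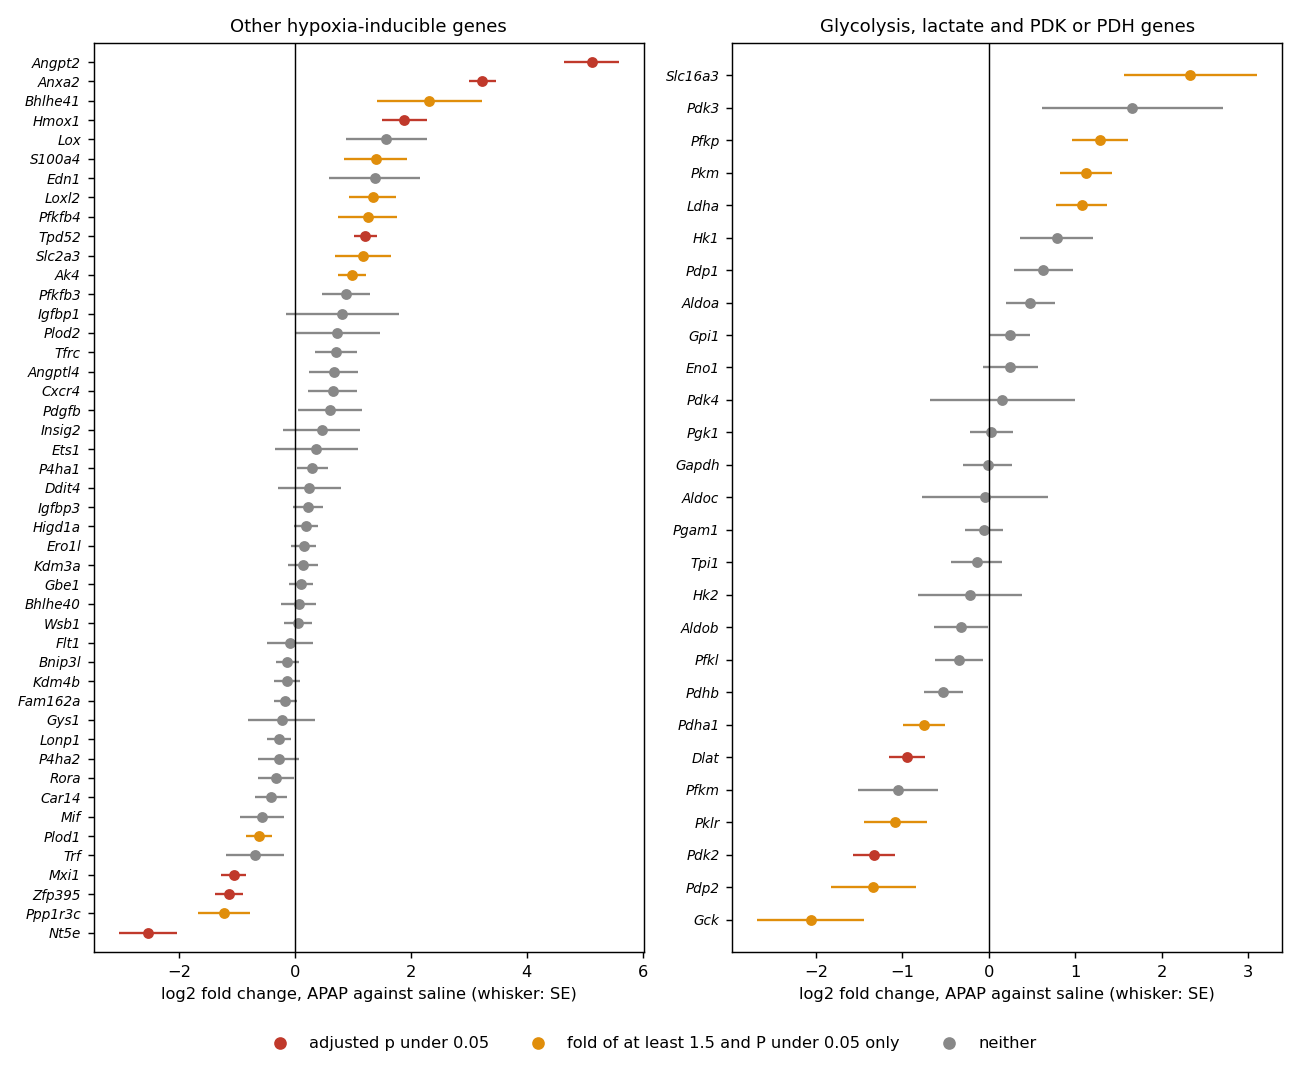
Fitted log2 fold change, APAP against saline, with its standard error as a whisker, for other hypoxia-inducible genes (left) and for the genes of glycolysis, lactate and pyruvate dehydrogenase (right), colored by the threshold passed. On the left Angpt2 stands highest at 5.12 and Nt5e lies lowest, and on the right no gene above 0 has an adjusted p under 0.05.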

How the data were processed

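Liver RNA was sequenced on an Illumina NovaSeq platform, and reads were aligned with HISAT2 by the authors. They deposited raw counts of reads and FPKM values for each gene in the 5 libraries analysed here. The counts used here carry no normalization. The processing notes name GRCm38 (mm10). The Methods name HISAT2 for the counts and StringTie for the FPKM values. The annotation and strand setting are not given in the sources used here. The 5 FPKM columns of per-library values were not used. Gene spans are printed as deposited, and lengths and overlaps come from GENCODE M21. Of the 34745 gene identifiers, 27772 had an identical span there, among them 6 of the 10 genes described.

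The edgeR package (4.0.16, in R 4.3.3) was used. After filterByExpr with a minimum count of 10 and a minimum total of 15, libraries were normalized by TMM and genes tested by the quasi-likelihood test (glmQLFit, glmQLFTest) with Benjamini-Hochberg adjustment over 13734 genes. The common dispersion was 0.111. The design, written for 3 libraries per group, was kept with 2 APAP libraries. The fit was tested on simulated data. Alternatives were the likelihood ratio and exact tests, DESeq2 1.42.0, other scalings and filters, the study's thresholds and each library left out. Levels per kb are CPM divided by the length of the merged exons. The 10 genes, the gene lists and the rule for named genes (the 10, the best known partners, relatives and targets, and the called genes of each list, at most the 3 highest and 3 lowest) were chosen with earlier results of these data known. The values of 1 gene named by this rule are not reported here, in the text or the plots, and the gene is kept in the counts. Promoter windows are those of RefSeq. Plots were drawn with matplotlib 3.10.9 in Python 3.11.15.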

Additional observations from a re-analysis of the deposited data

How the results depend on the processing

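No paired analysis was possible because the names WT1, WT2 and WT3 do not tie the saline libraries to the numbered saline samples. Of all tested genes, 993 had an adjusted p under 0.05, against 1835 in the likelihood ratio test, 1776 in the exact test and 2093 in DESeq2. With 1 saline library left out the count was between 165 (without saline WT2) and 922. At the study's thresholds 3228 genes passed here. The paper reports fewer genes at these thresholds, and the reason for the difference was not tested. Of the 10 genes, 3 were called, against 5 in the likelihood ratio test, the exact test, DESeq2 and with scaling to library size only, 6 at the study's thresholds and 1 to 3 with 1 library left out. Scaling to library size only moved the median log2 fold change of all genes from 0.03 to 0.42 and the share of higher calls from 51.2% to 77.8%, which bears on each direction given for a gene near 0. The count of other hypoxia-inducible genes called was 8, against 3 to 8 with 1 library left out and 16 at the study's thresholds. Of the glycolytic genes, 0 were called in the main test, 5 in the likelihood ratio and exact tests, 6 in DESeq2 and at the study's thresholds, 3 with scaling to library size only or no filter, 1 with at least 10 counts in every library, and 0 to 1 with 1 library left out.

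Among single genes, no called log2 fold change turned its direction. Values near 0 did. With 1 library left out, Ankrd37 ranged from −0.099 (without APAP replicate 3) to 0.84, Vhl from −0.195 to 0.0029, Hif1an from −0.241 to 0.18, Slc2a2 from −0.14 to 0.486, Pdk4 from −0.36 to 1.63 and Pgk1 from −0.077 to 0.203. With scaling to library size only, Vhl was at 0.302, Hif1an at 0.362, Egln2 at 0.015 and Bnip3l at 0.27, and with upper-quartile factors Hif1an was at 0.023. Without saline WT3, Vhl was at 0.0029, Hif1an at 0.051 and Pgk1 at −0.049. Without APAP replicate 1, Hif1an was at 0.18 and Pgk1 at −0.077. Without APAP replicate 3, Slc2a2 was at −0.14 and Pdk4 at −0.36. Pdk4 was at −0.19 without saline WT1 and at −0.28 without saline WT2, where Pgk1 was at −0.036, and Pgk1 was at −0.0098 in DESeq2 and −0.0099 with size factors. The cause of these shifts was not tested. Where 1 APAP library was left, it was assumed to vary like the saline libraries. Counts of 8 to 20 per library limit what can be said of Ankrd37.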
